A study of Mus musculus with 6 samples.

Results

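All genes of the mitochondrial genome that the count table holds were described in mouse splenic memory B cells. They were chosen by name, as every symbol that starts with mt-, and 13 of the 35186 counted symbols met this rule. The mouse mitochondrial chromosome carries 37 annotated genes (GENCODE mouse release M21, build mm10), of which 13 are mRNAs, 2 are ribosomal RNAs and 22 are transfer RNAs. All 13 mRNAs were present, while 0 ribosomal RNAs and 0 transfer RNAs were among the counted symbols, so that every value below is of mRNAs and the comparison by RNA class has 1 class. In the 6 libraries together these mRNAs held 86844 of 2609670 counts, or 3.33%.

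The mitochondrial genome is a small circle that is read from promoters on each strand into long transcripts, which are cut into mRNAs, mostly at the transfer RNAs between them. Some neighbours have no transfer RNA between them. On the same strand mt-Atp8 and mt-Atp6 overlap by 43 bases, and mt-Nd4l and mt-Nd4 by 7. Each gene is called an mRNA below, but counts within these pairs cannot be taken as levels of separate RNAs. All but 1 of the mRNAs lie on the transcript of the heavy strand, in an order that starts with mt-Nd1 and ends with mt-Cytb, and mt-Nd6 alone comes from the transcript of the light strand. They encode core subunits of complex I (NADH dehydrogenase), complex III (the cytochrome bc1 complex), complex IV (cytochrome c oxidase) and complex V (ATP synthase), while all other subunits of these complexes are made from nuclear genes.

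The 2 groups had 3 libraries each, all labelled C57BL/6J, spleen and memory B cell: wild type (WT) and Nix-/-Bnip3-/- (DKO). The sorted cells bound the hapten NP, and immunization, age, the time of sampling and the design of the mutant alleles are not given in the labels. Nix, also named Bnip3l, and Bnip3 encode receptors of the outer mitochondrial membrane that hand mitochondria to the autophagy machinery (mitophagy). RNA was enriched for polyadenylated molecules, and libraries were made with a kit for single-cell RNA. The labels do not state that each library had its own animal, so p-values measure the spread between these libraries, which may be technical.

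Libraries held 312908 to 517057 counts. A count was recorded for 17831 to 18486 genes in WT libraries and for 23580 to 24787 genes in libraries labelled DKO, and the 100 most abundant genes that are not mitochondrial took 21.3 to 28.4% of the remaining counts in the former and 9.06 to 13.6% in the latter. The targeted gene Bnip3l had 1, 8 and 0 counts in the WT libraries against 10, 16 and 41 in those labelled DKO, so that its mean was higher in the libraries labelled as lacking it. Bnip3 had 25, 62 and 6 counts against 2, 24 and 11. Counts per gene do not show which exons were deleted, and all directions below follow the labels of the libraries. Of 10 markers of B cells all had a count somewhere, but those that B cells hold in abundance were near 0, with 0 to 4 counts of Cd79a and 0 to 11 of Cd74 in a library. Their summed level was 175 to 332 CPM (counts scaled to the library total) in WT libraries and 385 to 522 CPM in libraries labelled DKO.

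The counts assigned to the mRNAs differed by orders of magnitude. The highest was mt-Co1 (chrM:5328-6872, plus strand), the catalytic subunit of complex IV, with 8138, 13602 and 2713 counts in WT libraries 1, 2 and 3, and with 3640, 2463 and 1643 counts in those labelled DKO. It took 37.1% of all counts of mitochondrial mRNAs and ranked between 1 and 6 among all genes of a library. Per kilobase of length it was the highest of the mitochondrial mRNAs in 5 of 6 libraries, and in DKO library 1 mt-Nd1 stood above it, at 2575 against 2356 counts per kilobase.

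Among the mRNAs for complex I, mt-Nd1, mt-Nd2, mt-Nd4 and mt-Nd5 were the abundant ones. The counts of mt-Nd1 (chrM:2751-3707), a membrane subunit near the quinone site, were 3659, 3831 and 1098 in WT libraries and 2464, 1496 and 1003 in libraries labelled DKO. Those of mt-Nd2 (chrM:3914-4951), a proton-pumping subunit, were 4567, 2741 and 760 against 2196, 995 and 781. In both, WT libraries 1 and 2 lay above every library labelled DKO, and WT library 3 lay below DKO library 1. For mt-Nd2 WT library 3 had the lowest raw count of all. The counts of mt-Nd4 (chrM:10167-11544), another proton-pumping subunit, were 1898, 2298 and 305 against 682, 493 and 316, and those of mt-Nd5 (chrM:11742-13565), the pump at the far end of the membrane arm, were 3233, 4772 and 729 against 1782, 1214 and 735. In both, WT libraries 1 and 2 again lay above every library labelled DKO, and in raw counts WT library 3 was the lowest of all. As a share of all counts WT library 3 lay below DKO library 1 and above DKO library 3 for both.

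For mt-Cytb (chrM:14145-15288), the cytochrome b of complex III, the counts were 1597, 3105 and 464 against 1656, 891 and 570. In raw counts WT library 2 alone lay above all libraries labelled DKO. As a share of all counts WT library 1 did too, at 0.510% against 0.373% in DKO library 1. The light-strand mRNA mt-Nd6 (chrM:13552-14070, minus strand), a membrane subunit of complex I, had 257, 409 and 41 counts against 199, 133 and 44. Its locus overlaps mt-Nd5 by 14 bases on the opposite strand and lies within the heavy-strand transcript. No source used here says whether counting was stranded, so mt-Nd6 and its antisense RNA cannot be told apart.

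The other mRNAs had few counts. Of mt-Nd3 (chrM:9459-9806), a small subunit of complex I, 323, 285 and 54 counts were found in WT libraries and 109, 63 and 28 in libraries labelled DKO. The counts of mt-Co2 (chrM:7013-7696), the subunit that takes electrons from cytochrome c, were 43, 67 and 4 against 12, 6 and 5, and those of mt-Co3 (chrM:8607-9390), a structural subunit of complex IV, were 25, 33 and 13 against 15, 3 and 4. In raw counts WT library 3 lay among or below the libraries labelled DKO for mt-Nd3, mt-Co2 and mt-Co3. The complex I subunit mt-Nd4l (chrM:9877-10173) had 25, 17 and 11 counts against 9, 5 and 7, and mt-Atp6 (chrM:7927-8607), the proton channel subunit of complex V, had 24, 21 and 3 against 5, 7 and 2. For mt-Atp6 WT library 3 again lay among the libraries labelled DKO. A total of 3 counts came from mt-Atp8 (chrM:7766-7969), the other subunit of complex V, 2 of them in WT library 2 and 1 in DKO library 1. In the other 4 libraries mt-Atp8 had 0 counts, which allows a share of up to 0.000580 to 0.000959% of all counts.

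The abundance of each mRNA was set beside the sequence it shares with nuclear genes, since nuclear chromosomes carry copies of mitochondrial DNA and a read that matches both has no single origin. Annotated nuclear transcripts were aligned with the mitochondrial mRNAs, and 11 copies of 9 mRNAs had an identity of at least 95% over at least 200 bases. Of these, 7 lie side by side on the minus strand of chromosome 1, between positions 24611535 and 24616197 of mm10. They match the mitochondrial genome from position 6390 to position 11042, in the same order. The annotated copies in this stretch hold the end of mt-Co1, nearly all of mt-Co2, mt-Atp6, mt-Co3, mt-Nd3 and mt-Nd4l, and the start of mt-Nd4. By position mt-Atp8 also falls within it, between mt-Co2 and mt-Atp6, but no copy of it is annotated there.

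The sequences show how close these copies are. The first 100 bases of mt-Co2 (chrM:7013-7112) are the same as those of the pseudogene Gm28661 (chr1:24615466-24615565, minus strand), and so are all 681 aligned bases.
mt-Co2 and Gm28661: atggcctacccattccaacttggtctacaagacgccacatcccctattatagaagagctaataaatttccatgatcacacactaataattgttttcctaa
Over the first 345 of the 348 bases of mt-Nd3 the copy Gm28438 has 1 difference, T3C, where positions count from 1 at the first base of the mitochondrial mRNA and the mitochondrial base comes first. The first 33 bases of both (chrM:9459-9491 and chr1:24613087-24613119, minus strand) carry it in capitals.
mt-Nd3: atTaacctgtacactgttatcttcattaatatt
Gm28438: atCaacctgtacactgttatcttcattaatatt
Gm29216 matches the last 483 bases of mt-Co1, again with 1 difference, A1066T, which stands in capitals at the start of the copy (chrM:6390-6423 and chr1:24616155-24616188, minus strand).
mt-Co1 from position 1063: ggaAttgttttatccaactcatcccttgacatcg
Gm29216: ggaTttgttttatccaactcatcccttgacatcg
The copy of mt-Nd4, Gm28439, is the same over the first 876 of 1378 bases and then ends. In the 80 bases around this end (chrM:11003-11082) the part that the annotated copy does not hold is in capitals.
mt-Nd4: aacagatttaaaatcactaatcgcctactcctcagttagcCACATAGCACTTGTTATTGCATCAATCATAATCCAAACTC

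A second set of copies, on chromosome 2, has diverged further. Gm13340 covers all 1545 bases of mt-Co1 at 97.6% identity with 37 differences, of which C54A, A60G and G87A fall in the first 100 bases and are in capitals (chrM:5328-5427 and chr2:22589548-22589647, minus strand).
mt-Co1: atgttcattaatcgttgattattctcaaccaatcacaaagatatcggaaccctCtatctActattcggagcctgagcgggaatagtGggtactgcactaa
Gm13340: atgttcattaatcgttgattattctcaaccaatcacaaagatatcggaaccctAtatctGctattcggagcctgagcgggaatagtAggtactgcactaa
In the count table Gm13340 had 17, 38 and 4 counts in WT libraries and 6, 7 and 2 in libraries labelled DKO, a small number beside those of mt-Co1. Gm10222, which matches mt-Nd4l without a difference over 294 bases, had 10, 8 and 3 against 6, 1 and 2, and was the 1 copy on chromosome 1 among the counted symbols.

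The mRNAs that share nearly all of their sequence with a nuclear transcript were those with few counts. Of all windows of 50 bases in an mRNA, 98.0 to 100% also occurred in a nuclear transcript for mt-Co2, mt-Atp6, mt-Co3, mt-Nd3 and mt-Nd4l. These 5 mRNAs make up 24.5% of the length of the 13 and had 1.41% of their counts. Summed over libraries, they had 91.0 to 2477 counts per kilobase, and without mt-Nd3 at most 249. The shares of windows were 62.2% for mt-Nd4, 51.1% for mt-Co1, 8.19% for mt-Nd2, 7.61% for mt-Nd5 and 0% for mt-Nd1, mt-Nd6 and mt-Cytb, and these 7 mRNAs had 2087 to 20841 counts per kilobase.

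There was an exception. With 98.0% of its windows shared and the 1 difference T3C, mt-Nd3 had 9.94 times the counts per kilobase of the next in its set. The lowest of all mRNAs, mt-Atp8, had 14.7 counts per kilobase. Its share of windows was 0% among annotated transcripts, but it lies within the matching stretch by position, so that sharing with chromosome 1 itself could not be measured. It overlaps mt-Atp6 by 43 of its 204 bases. Read length, the treatment of reads that match more than 1 place and the genome outside annotated transcripts could not be examined here, and the part of shared sequence in these counts was not tested.

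**Figure D1:**
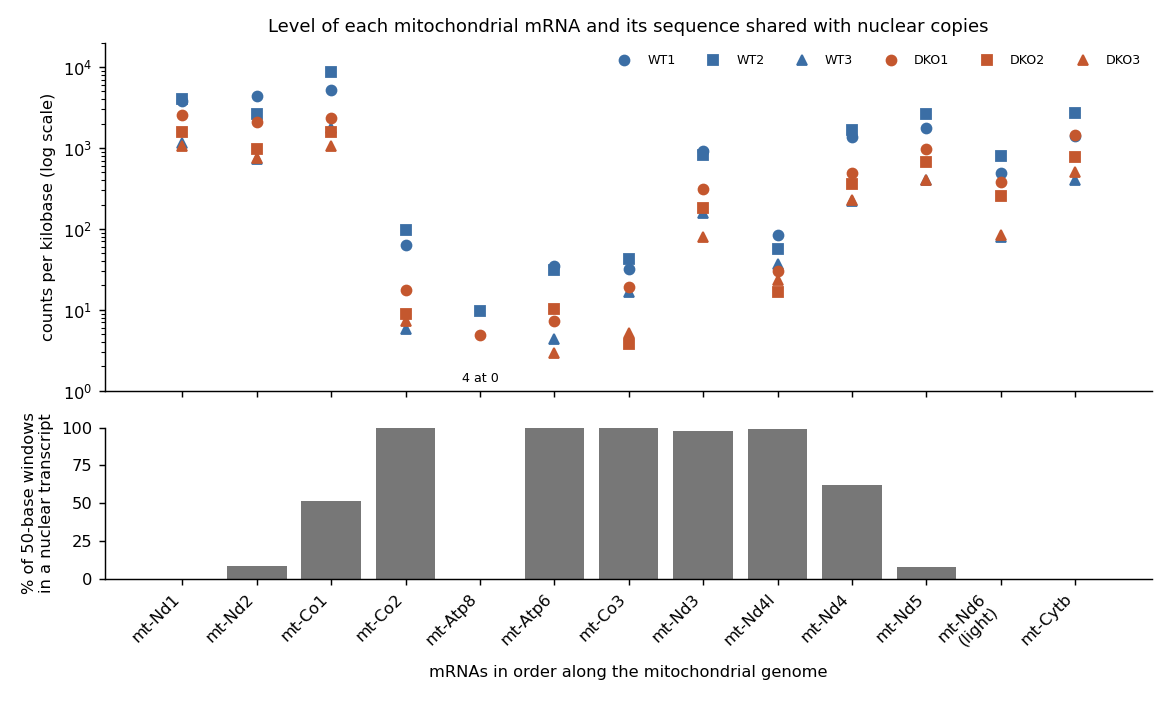
Upper panel: counts per kilobase of each mitochondrial mRNA (log scale) in each library, in order along the mitochondrial genome, with circles, squares and triangles for libraries 1, 2 and 3, blue for WT and orange for libraries labelled DKO. Lower panel: percentage of the 50-base windows of each mRNA that occur in an annotated nuclear transcript; mt-Co2, mt-Atp6, mt-Co3 and mt-Nd4l are low in all 6 libraries, and they and the higher mt-Nd3 share 98.0 to 100% of their windows.

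Abundance did not fall steadily along the heavy strand. Over the 12 heavy-strand mRNAs, Spearman's rho between position and counts per kilobase was between -0.20 and -0.15 in the 6 libraries, given as a description, since the points share a library and the middle of the order is where sequence is shared with chromosome 1. Over the 8 of them with at least 100 counts summed over all libraries it was between -0.50 and -0.31. These 8 include mt-Nd3 and also mt-Co2, which had 137 counts in total and 4 to 67 in a library. The far end, mt-Nd5 and mt-Cytb together, was then set against the near end, mt-Nd1 and mt-Nd2 together, which share little or no sequence with nuclear transcripts. The log2 ratio of their counts per kilobase was -1.34, -0.31 and -1.21 in WT libraries and -1.01, -0.82 and -1.02 in libraries labelled DKO, so the far end was lower than the near end in all 6 libraries. The group means were -0.96 ± 0.56 and -0.95 ± 0.12 (SD, n = 3 each, exact two-sided permutation p = 1). WT library 2 stood apart with the value nearest 0, and without it the difference between groups was 0.33.

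The groups were compared first by the share of a library that is mitochondrial mRNA. The mitochondrial mRNAs made up 7.60, 6.23 and 1.94% of the counts of WT libraries 1, 2 and 3. In those labelled DKO they made up 2.87, 1.503 and 0.998%. Counting error was small, with 95% Wilson intervals of 7.51 to 7.696% in WT library 1 and 0.971 to 1.025% in DKO library 3, though amplified reads are not independent molecules. The spread within groups was far larger, at 3.93-fold between WT libraries and 2.88-fold between libraries labelled DKO, and WT library 3 lay below DKO library 1. The means were 5.26 ± 2.96% and 1.79 ± 0.97% (SD, n = 3 each), and the exact two-sided permutation p was 0.2 (0.32 after Benjamini-Hochberg adjustment over the 8 measures tested), where 0.1 is the smallest p that 3 libraries against 3 allow. In bulk RNA, fewer cells of a type and less RNA per cell cannot be told apart.

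Other measures moved with the groups. Of 6 myeloid markers 5 were counted, and their summed level was 15.98 to 153 CPM in WT libraries and 360 to 744 CPM in libraries labelled DKO. Among them Lyz2 had 4, 0 and 10 counts against 35, 92 and 206, and Itgam had 1, 9 and 21 against 81, 181 and 147. The other 3 did not separate the groups, with 0, 43 and 5 against 15, 10 and 27 for Csf1r, 0, 0 and 1 against 28, 0 and 0 for S100a8, and 0, 0 and 12 against 1, 7 and 3 for S100a9. Markers of plasma cells (4 of 5 counted, 57.5 to 113 against 54.4 to 324 CPM), T cells (7 of 7, 109 to 160 against 120 to 203 CPM) and erythroid cells (7 of 7, 32.0 to 95.9 against 22.5 to 36.7 CPM, Hba-a2 and Hbb-bs at 0 in every library) overlapped between groups. Markers of memory B cells (7 of 7, 15.98 to 95.9 against 98.6 to 225 CPM) did not, nor did those of B cells given above. The part of other cells, and of the larger number of genes with a count in libraries labelled DKO, in the mitochondrial share was not tested.

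**Figure D2:**
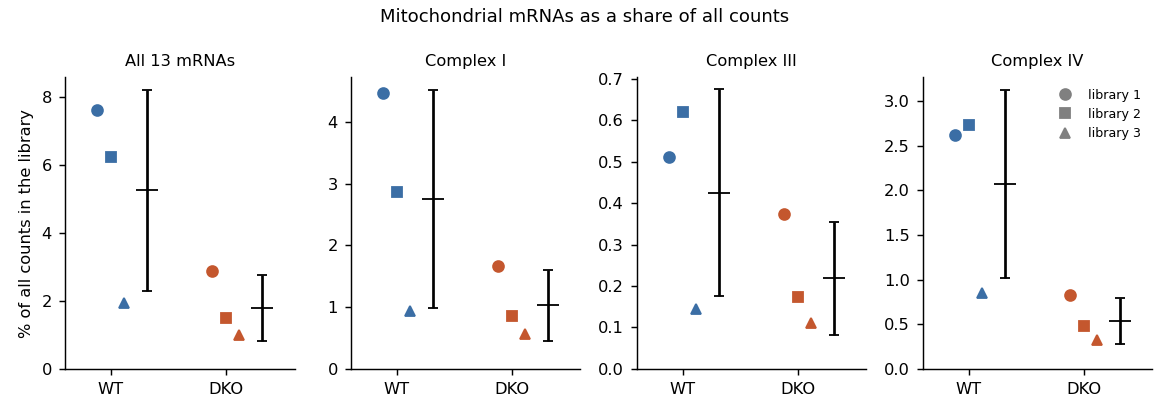
Mitochondrial mRNAs as a percentage of all counts of a library, for all 13 and by respiratory complex, with 1 point for each library and the mean and SD (n = 3) of each group beside the points. WT library 3, at 1.94% for all 13, lies below DKO library 1, at 2.87%, and complex IV is the panel in which groups do not overlap.

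By complex, the subunit mRNAs of complex IV separated the groups. They took 2.62, 2.74 and 0.853% of the counts of WT libraries and 0.825, 0.478 and 0.321% in libraries labelled DKO, nearly all of it mt-Co1. The means, 2.07 ± 1.06% and 0.541 ± 0.258% (SD, n = 3 each), differed 3.83-fold, with an exact permutation p of 0.1, the smallest possible (adjusted 0.267). WT library 3 and DKO library 1 were close to each other, and the separation rests on that narrow gap. The 7 mRNAs of complex I took 4.46, 2.87 and 0.937% against 1.67, 0.851 and 0.566% (exact permutation p = 0.2, adjusted 0.32). For complex III the values of mt-Cytb were 0.510, 0.620 and 0.145% against 0.373, 0.172 and 0.111% (exact permutation p = 0.3, adjusted 0.343). In both, WT library 3 lay below DKO library 1. Without WT library 1 the complex I difference went from -1.73 to -0.872 percentage points, and without WT library 2 that of complex III went from -0.207 to -0.109. The mRNAs of complex V took 0.00767% of counts or less (exact permutation p = 0.3).

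The make-up of the mitochondrial mRNA pool does not depend on how many other genes were counted. In this pool mt-Co1 held 34.2, 43.6 and 43.8% in WT libraries and 28.5, 31.7 and 32.0% in libraries labelled DKO, so that groups did not overlap. The means were 40.5 ± 5.48% and 30.7 ± 1.93% (SD, n = 3 each, exact permutation p = 0.1, the smallest possible, adjusted 0.267). The nearest libraries were WT library 1, with a 95% Wilson interval of 33.6 to 34.8%, and DKO library 3, with 30.7 to 33.3%. These intervals cover counting error only, and WT libraries themselves differed by up to 1.28-fold.

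Since the shares of a pool add up to a fixed sum, a lower share of mt-Co1 has to be met by higher shares elsewhere, and the other mRNAs are described with no test. The share of mt-Nd1 was 15.4, 12.3 and 17.7% in WT libraries and 19.3, 19.3 and 19.5% in libraries labelled DKO, and that of mt-Cytb was 6.71, 9.96 and 7.49% against 12.97, 11.5 and 11.1%. Both were higher in all 3 libraries labelled DKO. Within each library, mt-Cytb had 0.196, 0.228 and 0.171 counts per count of mt-Co1 in WT libraries and 0.455, 0.362 and 0.347 in libraries labelled DKO, and mt-Nd1 had 0.450, 0.282 and 0.405 against 0.677, 0.607 and 0.610. Neither mt-Nd1 nor mt-Cytb shares a 50-base window with a nuclear transcript, while mt-Co1 shares 51.1% of its own. The ratio of mt-Cytb to mt-Nd5, which lie on either side of mt-Nd6, was 0.494, 0.651 and 0.636 against 0.929, 0.734 and 0.776. Of 10 such ratios computed 4 did not overlap between groups, these 3 and mt-Nd5 to mt-Co1 (0.397, 0.351 and 0.269 against 0.490, 0.493 and 0.447). The other 6 overlapped: mt-Nd2, mt-Nd3 and mt-Nd4 to mt-Co1, mt-Nd2 to mt-Nd1, and mt-Nd6 to mt-Nd5 and to mt-Cytb. Except for mt-Cytb to mt-Nd5, the ratios without overlap all have mt-Co1 as the denominator, so they are not separate observations. How often ratios of other genes fail to overlap was not computed.

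Shares of other mRNAs overlapped or moved the other way. The share of mt-Nd3 was 1.36, 0.914 and 0.872% in WT libraries and 0.854, 0.811 and 0.545% in libraries labelled DKO. The nearest values of the groups, 0.872 and 0.854%, differed by less than their counting error. For mt-Nd2 the shares were 19.2, 8.79 and 12.3% against 17.2, 12.8 and 15.2%, the widest spread between WT libraries among the abundant mRNAs. Those of mt-Nd5 lay at 13.6, 15.3 and 11.8% against 14.0, 15.6 and 14.3%, and those of mt-Nd4 at 7.98, 7.37 and 4.92% against 5.34, 6.35 and 6.15%. The light-strand mRNA mt-Nd6 held 1.08, 1.31 and 0.662% against 1.56, 1.71 and 0.856%. Groups overlapped in each of these 4. Between libraries labelled DKO the shares of mt-Nd1 lay within 1.01-fold of each other, and between WT libraries within 1.44-fold.

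**Figure D3:**
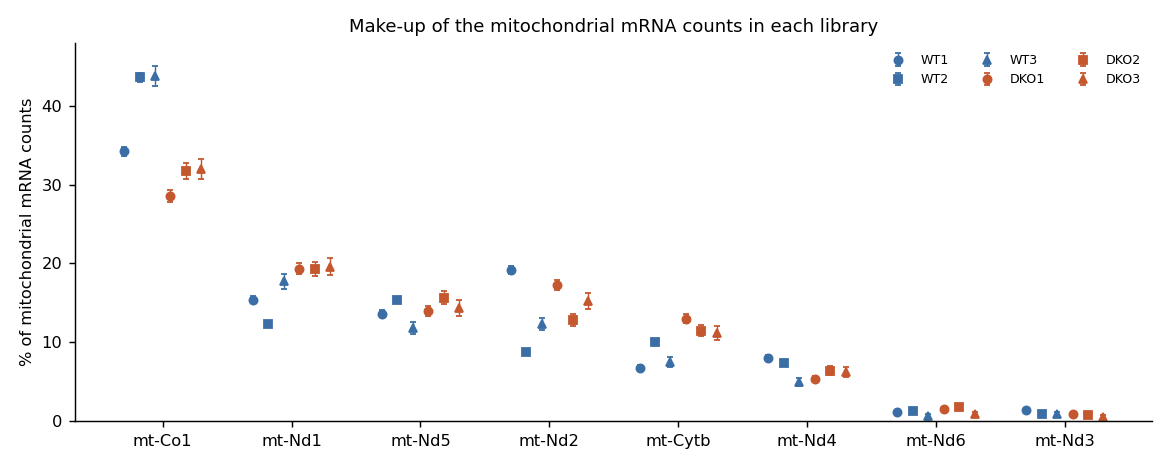
Percentage of the mitochondrial mRNA counts of each library that belongs to each of the 8 abundant mRNAs, with 95% Wilson intervals as bars; blue is WT and orange is labelled DKO. The 3 orange points of mt-Co1 (28.5 to 32.0%) lie below the 3 blue points (34.2 to 43.8%), and those of mt-Nd1 and mt-Cytb lie above.

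Gene by gene, the counts were tested with edgeR's quasi-likelihood test over all genes. Of the 13 mRNAs 11 passed the filter on low counts and mt-Atp6 and mt-Atp8 did not. After Benjamini-Hochberg adjustment 0 of the 11 passed a threshold of 0.05, as did 0% of the 8895 genes tested. All 11 fold changes lay below 0, where 54.5% of all tested genes did, and their median on the log2 scale, DKO against WT, was -2.53 against -0.17 over all genes. Scaling mattered for the size: TMM, the scaling used, gave factors of 0.695 to 0.812 to WT libraries and 1.28 to 1.38 to those labelled DKO. With library totals alone the medians were -1.79 for the 11 and 0.62 for all genes.

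The 3 mRNAs with an unadjusted p under 0.05 were among those with few counts. They were mt-Co2 (-3.38, SE 1.15), mt-Co3 (-2.78, SE 1.05) and mt-Nd4l (-2.53, SE 0.96), each with an edgeR adjusted p of 0.390, and 6.59% of all tested genes were lower at that unadjusted threshold. Their normalized levels were 168 ± 129 against 15.96 ± 9.71 CPM for mt-Co2 and 109 ± 35.1 against 15.7 ± 15.8 CPM for mt-Co3 (SD, n = 3 each). The abundant mt-Co1 was at -2.78 with an SE of 2.44 (edgeR adjusted p = 0.647), from 36437 ± 19863 against 5316 ± 2615 CPM. The biological coefficient of variation estimated in the fit had a median of 1.03 over the 11 (range 0.713 to 1.06) against 0.860 over all genes. It is a fitted value that draws on other genes, not the observed spread between libraries. For mt-Co1 it was 1.05, while the SD of each group given above was well below its mean. The fold changes of mt-Nd1 (-1.95, SE 2.11), mt-Cytb (-1.81, SE 1.98) and mt-Nd6 (-2.01, SE 1.47) were the smallest. Those of mt-Nd2 (-2.21), mt-Nd5 (-2.35) and mt-Nd4 (-2.74) lay between these and mt-Co1. That of mt-Nd3 (-2.88) was exceeded in size only by that of mt-Co2.

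How many mRNAs separated the groups depended on the scaling and the tool. With TMM-normalized CPM, 6 of 11 were lower in all libraries labelled DKO (mt-Nd1, mt-Co1, mt-Co3, mt-Nd3, mt-Nd4l and mt-Nd4), where 6.39% of all tested genes were. With CPM of library totals 3 of 11 were (mt-Co1, mt-Co3 and mt-Nd4l), where 2.36% of all genes were. DESeq2 called 4 of the 11 lower: mt-Co1 (adjusted p = 0.00451), mt-Co2 (adjusted p = 0.0129), mt-Co3 (adjusted p = 0.0277) and mt-Nd4l (adjusted p = 0.0319), where it called 4.51% of the 8488 genes to which it gave an adjusted p lower. These 4 include all mRNAs of complex IV. Single libraries moved some values: mt-Co3 was at -3.83 and mt-Nd2 at -2.80 without DKO library 1, and mt-Nd2 was at -1.33 and mt-Nd3 at -2.25 without WT library 1.

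**Figure D4:**
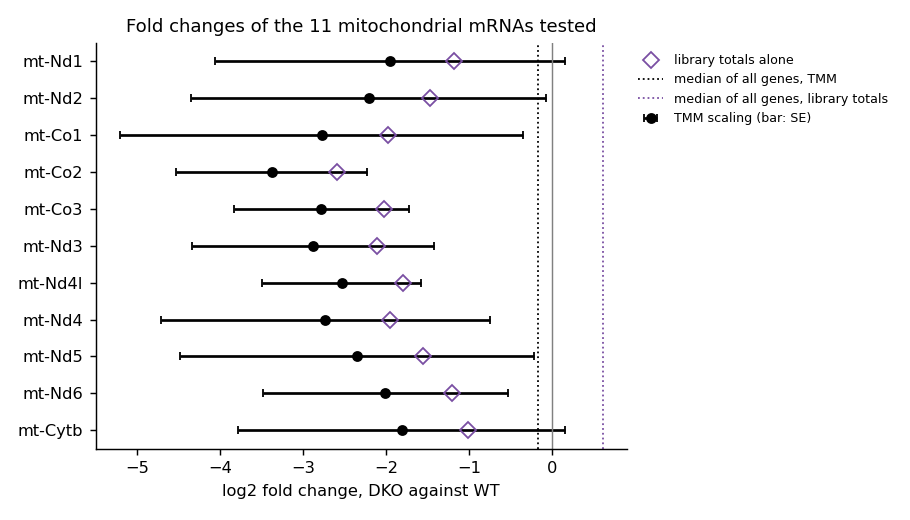
Log2 fold change, DKO against WT, of the 11 mitochondrial mRNAs tested, with TMM scaling (black points, bars of 1 SE) and with library totals alone (open diamonds); dotted lines mark the median of all 8895 tested genes under each scaling. All points lie below the matching median, and the bars of mt-Nd1 and mt-Cytb reach 0.

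Nuclear genes that transcribe, process and maintain mitochondrial RNA and DNA lay on both sides of 0. Of 54 listed, all were in the table and 21 were tested; 10 lay above 0 and 11 below, and 0 passed the adjusted edgeR test. An unadjusted p under 0.05 was found for 3 of the 21, Ptcd3 and Tefm above 0 and Supv3l1 below, where 12.1% of all tested genes had one. The median log2 fold change was -0.07. Polrmt, the mitochondrial RNA polymerase, had 7, 0 and 0 counts in WT libraries and 2, 0 and 6 in libraries labelled DKO, and Tfam, which packs the DNA and activates its promoters, had 3, 3 and 0 against 3, 3 and 6, so that neither could be tested. Tfb2m, the initiation factor, had 3, 82 and 3 counts against 14, 33 and 17 (-1.48, SE 1.21). Higher values were found for Tefm, the elongation factor of that polymerase, with 3, 1 and 1 counts against 47, 13 and 19 (2.73, SE 1.11), and for Ptcd3, a protein of the mitochondrial ribosome, with 3, 5 and 1 against 26, 67 and 39 (2.63, SE 1.00). Fastkd1, of a family that acts on mitochondrial mRNA stability, had 6, 0 and 0 against 17, 21 and 46 (2.42, SE 1.34).

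Lrpprc, which holds mitochondrial mRNAs stable and polyadenylated, had 13, 71 and 20 counts against 138, 130 and 102 (0.74, SE 1.00). Supv3l1, the helicase of mitochondrial RNA decay, had 3, 358 and 276 counts against 15, 55 and 41 (-3.72, SE 1.67), with WT library 1 apart from the other 2, and was the 1 listed gene that DESeq2 called. The mitochondrial poly(A) polymerase Mtpap had 26, 4 and 24 counts against 11, 9 and 20 (-1.77, SE 1.04), and the exonuclease Mgme1 had 18, 7 and 6 against 2, 12 and 12 (-1.58, SE 1.01). TMM-normalized values overlapped between groups for Mtpap and Supv3l1 and did not for Mgme1, whose raw counts overlapped. Of all tested genes 6.39% were lower without overlap on this scale.

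The same complexes also need subunits from the nucleus, of which 78 were listed and 76 counted. These summed to 484, 497 and 277 counts in WT libraries and 689, 720 and 984 in libraries labelled DKO, and 34 to 40 of them had no count in a WT library against 16 to 23 in a library labelled DKO. Detection differed in the same direction over all 35186 symbols. A count was recorded for 17831 to 18486 of them in WT libraries and for 23580 to 24787 in libraries labelled DKO. As a share of all counts the 76 subunits took 0.155, 0.099 and 0.087% against 0.155, 0.139 and 0.191%, with groups that overlapped. The log2 ratio of mitochondrial to nuclear subunit counts was 5.62, 5.97 and 4.48 in WT libraries and 4.21, 3.43 and 2.38 in libraries labelled DKO. The groups did not overlap, and the means of 5.36 ± 0.78 and 3.34 ± 0.92 (SD, n = 3 each) differed by -2.02 (exact permutation p = 0.1, the smallest possible, adjusted 0.267). Of the 15 nuclear subunits tested 8 lay above 0 and 7 below, 0 passed, and their median log2 fold change was 0.16.

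**Figure D5:**
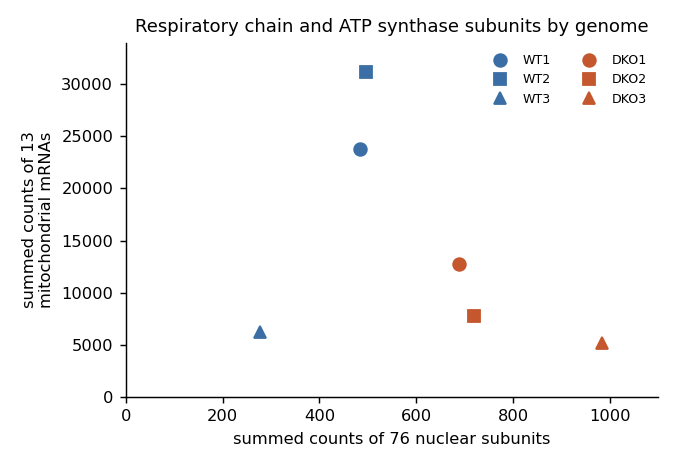
Summed counts of the 13 mitochondrial mRNAs against summed counts of the 76 nuclear subunits of the same complexes, 1 point for each library (blue WT, orange labelled DKO). WT library 3 (6195 mitochondrial and 277 nuclear counts) lies at the height of the libraries labelled DKO but to their left.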

How the data were processed

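RNA was sequenced from sorted memory B cells in 3 WT libraries and 3 libraries labelled DKO. The authors deposited 1 table of raw counts for 35186 gene symbols. Its values are whole numbers with no normalization, and 0 columns were left without a sample. CASAVA, STAR, edgeR, R 3.6.3 and the build mm10 are named in the submitters' processing notes, with no roles. The counting tool, its strand setting, its treatment of reads with several matches and its annotation were not given in the sources used here. The members, gene lists and tests were chosen with earlier results of these data known.

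Genes were kept by filterByExpr (minimum count 10), scaled by TMM and tested with edgeR 4.0.16 (R 4.3.3, quasi-likelihood F test, robust, no covariate, all 6 libraries), with Benjamini-Hochberg adjustment over 8895 genes and a threshold of 0.05. The SE of a log2 fold change is its size over the root of the F statistic. DESeq2 1.42.0 and limma-voom 3.58.1 were alternatives. Shares, make-up, order and ratios were computed per library and compared by exact two-sided permutation tests of the difference of means (scipy 1.17.1, Python 3.11.15). Named were all members, Polrmt, Tfam, Tfb2m, Tefm, Lrpprc, the 3 listed genes with the smallest p in each direction (Tefm counts under both), and nuclear copies with at least 10 counts; copies with fewer or no counts were named for their sequence. With 312908 to 517057 counts per library, 1 count was worth 1.84 to 5.25 normalized CPM.

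Positions, lengths and sequences are from GENCODE mouse release M21 on mm10. Copies were found with BLAST 2.17.0 among annotated transcripts, since no genome sequence was used here, so the planned windows counted over the genome were replaced by windows counted over transcripts. Same-numbered libraries were compared as pairs: correlations of their deviations were 0.02, 0.03 and 0.04, so no pairing was used. The steps were tested on simulated data.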

Additional observations from a re-analysis of the deposited data

How the results depend on the processing

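Of 187 fold changes of mitochondrial mRNAs under 17 alternatives, 0 changed sign, 183 stayed on their side of the threshold and 4 passed it, all in DESeq2. The count of genes called went from 0 to 130 with no filter on low counts (31134 genes tested) and to 601 with DESeq2, and the count among nuclear genes of mitochondrial gene expression went from 0 to 1 with DESeq2. At an unadjusted p under 0.05, edgeR found 586 genes lower and 488 higher. With mitochondrial mRNA counts as the denominator, the differences turned to 6.16 percentage points for complex I and 3.79 for complex III. These shares add up to a fixed sum, and that of complex IV differed by -9.94 percentage points, so the others had to rise. What lay behind the difference in make-up was not tested. The difference of the far against the near end ran from -0.19 to 0.33 with 1 library left out, and was -0.19 without WT library 1, -0.12 without WT library 3 and -0.06 without DKO library 2.

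With 1 library left out, the difference in mitochondrial share ran from -5.13 (without WT library 3) to -2.29 percentage points (without WT library 1), that of complex I from -2.63 to -0.872, that of complex III from -0.347 (without WT library 3) to -0.109, that of mt-Co1 in the pool from -12.98 to -8.19, and the log2 ratio of mitochondrial to nuclear subunits from -2.45 to -1.54. Leaving out 16911 genes with over 50% of their CPM in 1 library moved the difference in share to -8.71, with the same p of 0.2 in the exact permutation test. The replicate block gave -3.47 for the share, lower in 3 of 3 pairs (exact sign-flip p = 0.25, the smallest possible), and 0 genes called. Every library correlated best with its own number, but only at 0.02 to 0.04, and whether libraries were paired was not tested. With 2 libraries against 3 no p under 0.2 is possible in the exact permutation test. Shares by RNA class had 1 class and gave no values of their own. Depth limits mt-Atp8, mt-Atp6 and mt-Nd4l most.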
